A study of Mus musculus with 6 samples.

Results

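The 9 neuronal nicotinic acetylcholine receptor genes measured here were Chrna2 to Chrna7, encoding alpha subunits, and Chrnb2 to Chrnb4, encoding beta subunits. Open chromatin around them was read by ATAC-seq, which counts DNA reads at sites a transposase can reach. A region counted as belonging to a gene when it overlapped the RefSeq bounds of that gene extended by 20 kb on each side. This gave 68 of the 193148 regions of the series, and all 68 passed the filter on low counts. Windows of neighbouring genes overlap, so 14 regions belong to more than 1 of the 9 genes.

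The nuclei came from the ventral tegmental area, a midbrain region whose dopaminergic neurons take part in reward. Mice of the genotypes Ogtflox+/Y and Ogtflox-/Y were compared, with 3 libraries each. Ogt, on the X chromosome, encodes O-GlcNAc transferase, which adds a sugar to many proteins of nucleus and cytoplasm, and the series addresses what its knockdown does to chromatin. Ogtflox+/Y is read here as the genotype with the floxed allele and Ogtflox-/Y as the control; the labels do not say this outright. Both genotypes received AAV-TH-Cre, in which Cre is read as driven by a tyrosine hydroxylase promoter, and AAV-DIO-H2B-EGFP, which marks nuclei that carry Cre. Sorted EGFP-positive nuclei were used, so both groups carried Cre and the fluorescent histone as well. Age is not given in the sources used here, nor whether each library is a separate animal. Each p-value is thus set against the variation among 3 libraries a group, and this variation may be technical. Ogtflox+/Y replicate 1 bears the control genotype in its title, so a grouping by title was also run.

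Nicotinic receptors are cation channels opened by acetylcholine and by nicotine, each built from several subunits around a pore. Receptors with the alpha4 and beta2 subunits bind nicotine tightly and are the most common type in brain, while alpha7 subunits form channels of their own with high calcium permeability. In midbrain dopaminergic neurons alpha6 and beta3 subunits are enriched, and alpha5 joins other subunits as an accessory. Alpha3 and beta4 form the main receptor of autonomic ganglia and of the medial habenula.

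Reads in regions numbered 12698758 to 24440507 per library, so a level of 3 reads equals 0.117 to 0.238 CPM, which are counts per 1000000 reads in regions after TMM scaling. Intervals of single values are not given, and the precision rests on the spread of 3 libraries. The labelled cell type was checked by reads summed over regions within 20 kb of marker genes. All 8 dopaminergic markers had regions, with summed levels of 721 to 1154 CPM in Ogtflox-/Y and 734 to 866 CPM in Ogtflox+/Y. The 6 GABAergic markers summed to 219 to 279 CPM and 309 to 368 CPM, and the 6 astrocyte markers to 238 to 266 CPM and 274 to 377 CPM, in the same order. The 3 glutamatergic markers summed to 178 to 205 CPM and 143 to 167 CPM. Markers of oligodendrocytes (309 to 406 CPM over all libraries), microglia (158 to 182 CPM) and endothelial cells (81.2 to 88.2 CPM) were not at 0 in any library. Chi-square comparisons found every pair of libraries to differ by more than counting noise. Per degree of freedom, Ogtflox+/Y replicate 1 gave 6.80, 7.85 and 7.25 against Ogtflox-/Y replicates 1 to 3. Against Ogtflox+/Y replicates 2 and 3 it gave 2.91 and 2.46. Whether its genotype label or its title is right was not tested. Regions near the 2 cholinergic marker genes with any region summed to 25.4 to 32.6 CPM.

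The promoters are shown first, because at Chrna7, Chrnb2, Chrna4 and Chrna3 the start region was the most open region inside the gene, and the called regions lay elsewhere. RefSeq promoters (build GRCm38.p6, that is mm10) give 7 starts for 6 of the genes, namely Chrna3, Chrna4, Chrna5, Chrna7, Chrnb2 and Chrnb4. Chrna2, Chrna6 and Chrnb3 are not among them. The 250 bases before the start are printed for the starts of Chrna7, Chrnb2 and Chrna4, which had the highest levels, and of Chrnb4, which had the lowest. All are from the minus strand, written 5′ to 3′, with CpG dinucleotides in capitals. Their positions are chr7:63212527-63212776, chr3:89764633-89764882, chr2:181039178-181039427 and chr9:55048545-55048794.
Chrna7: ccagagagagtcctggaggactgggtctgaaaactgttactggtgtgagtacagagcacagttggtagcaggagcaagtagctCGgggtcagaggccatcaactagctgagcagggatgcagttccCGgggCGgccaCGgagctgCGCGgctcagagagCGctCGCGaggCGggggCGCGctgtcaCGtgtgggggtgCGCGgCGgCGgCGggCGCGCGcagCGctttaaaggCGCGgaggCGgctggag
Chrnb2: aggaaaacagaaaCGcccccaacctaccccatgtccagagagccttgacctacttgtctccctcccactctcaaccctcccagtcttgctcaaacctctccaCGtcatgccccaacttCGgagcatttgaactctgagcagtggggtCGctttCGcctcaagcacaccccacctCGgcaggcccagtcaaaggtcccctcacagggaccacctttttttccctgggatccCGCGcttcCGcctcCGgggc
Chrna4: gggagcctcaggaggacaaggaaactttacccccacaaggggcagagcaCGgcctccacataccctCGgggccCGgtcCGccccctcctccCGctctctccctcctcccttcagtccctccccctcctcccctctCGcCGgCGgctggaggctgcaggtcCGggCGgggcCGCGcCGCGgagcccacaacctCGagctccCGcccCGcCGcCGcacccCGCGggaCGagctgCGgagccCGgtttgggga
Chrnb4: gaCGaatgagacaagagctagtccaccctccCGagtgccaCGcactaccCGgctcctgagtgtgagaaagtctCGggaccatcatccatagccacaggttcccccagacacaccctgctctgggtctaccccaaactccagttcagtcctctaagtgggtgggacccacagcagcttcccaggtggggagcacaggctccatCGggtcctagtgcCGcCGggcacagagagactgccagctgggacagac

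These stretches hold 25, 10, 24 and 8 CpG dinucleotides. Over the full 300 bases of a listed promoter, which run to 50 bases past the start, Chrna7 had 35 and Chrna4 had 33, against a median of 7 among 32851 promoters. Chrna3 had 18, Chrnb4 14 and Chrnb2 12, and the upstream and downstream starts of Chrna5 had 5 and 25. Over the 300 bases Chrnb2, whose start region was far more open than that of Chrnb4, had fewer CpG dinucleotides, and over the printed 250 bases it had more. The letters TTCNNNGAA, the core of a STAT factor site and the same on both strands, were searched because the series title names STAT3. They occurred in both Chrna5 promoters and in none of the other 5, and in 8.3% of all promoters. The matches were TTCTGTGAA, 173 bases before the upstream start, and TTCCGAGAA, in the bases after the downstream one. GGGCGG on either strand, the GC box letters, occurred in the promoters of Chrna3, Chrna4, Chrna7 and Chrnb2, in the downstream one of Chrna5, and in 35.7% of all promoters. A match is a description of letters only.

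The start regions spanned a wide range of openness, with the same 4 genes at the top in both genotypes. Levels between genes are given per kb of region. The Chrna7 start region (chromosome 7, 63212377 to 63212777) had 57.0 ± 4.57 CPM per kb in Ogtflox-/Y and 58.9 ± 4.13 in Ogtflox+/Y (SD, n = 3). Chrnb2 (chromosome 3, 89764261 to 89764661) followed with 47.4 ± 2.96 and 43.8 ± 4.68 CPM per kb (SD, n = 3). Chrna4 (chromosome 2, 181039010 to 181039410) had 36.7 ± 3.41 and 39.2 ± 2.32 CPM per kb (SD, n = 3). Among the brain subunits of the classical receptor the beta2 start was thus more open than the alpha4 start in Ogtflox-/Y, without overlap of the libraries, while in Ogtflox+/Y the values overlapped.

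Chrna3 (chromosome 9, 55026286 to 55026686) had 19.1 ± 1.66 and 20.3 ± 3.98 CPM per kb (SD, n = 3). The 2 start regions of Chrna5, which overlapped each other in level, had 7.88 ± 2.12 and 6.91 ± 2.29 at the downstream start (54981219 to 54981619) and 6.94 ± 1.54 and 8.47 ± 1.25 CPM per kb at the upstream one (54980682 to 54981082; SD, n = 3). Chrnb4 (55048405 to 55048805), the partner of Chrna3 in the ganglionic receptor, had 2.62 ± 0.339 and 2.84 ± 0.437 CPM per kb (SD, n = 3). By mean level over the 6 libraries the Chrna7 start region stood above 95.5% of all regions tested and the Chrnb4 start region above 12.1%.

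**Figure D1:**
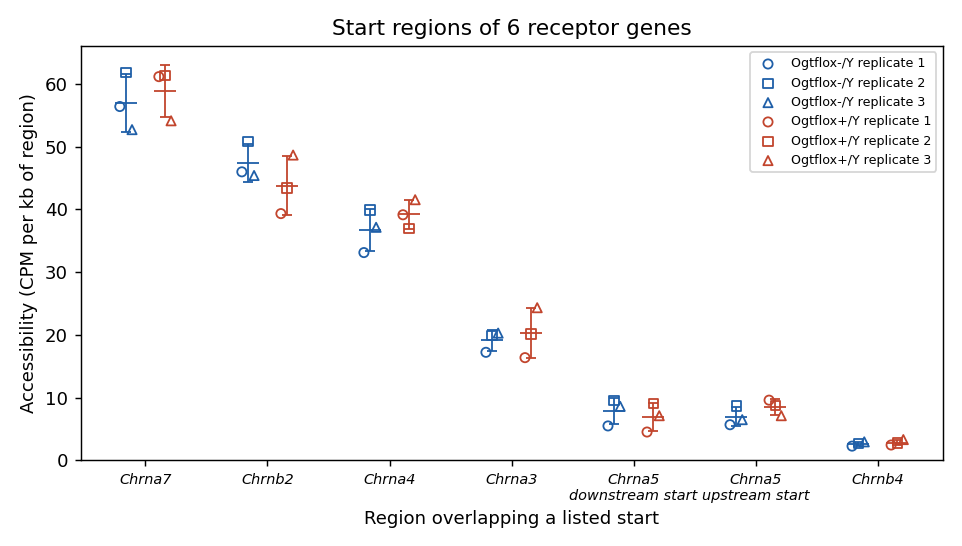
Accessibility of the regions overlapping the 7 listed starts of 6 receptor genes, in CPM per kb of region; symbols are libraries, horizontal marks and bars are the mean and SD of 3 libraries. Chrna7 is highest and Chrnb4 lowest in both genotypes, and both genotypes overlap at each start.

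None of the 9 regions within 1 kb of a listed start of these genes was called different between genotypes at an adjusted p under 0.05 (edgeR, adjusted over all regions). The background was 43.0% of all regions that close to a listed start of a protein-coding gene, and 38.3% were called higher. The Chrna7 start region had 22.6, 24.8 and 21.1 CPM in Ogtflox-/Y replicates 1 to 3 and 24.5, 24.6 and 21.7 CPM in Ogtflox+/Y replicates 1 to 3. The genotypes overlapped, and the log2 fold change (log2 ratio of Ogtflox+/Y over Ogtflox-/Y) was 0.04 (SE 0.11, adjusted p = 0.79 in edgeR). The Chrna4 start region had a log2 fold change of 0.09 (SE 0.12), Chrnb2 -0.11 (SE 0.12) and Chrna3 0.08 (SE 0.17). At an unadjusted p under 0.05, 0 of the 9 passed in edgeR, and DESeq2 called 0. Fewer cells of a type and less open chromatin per cell cannot be told apart in such bulk libraries.

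Across all 68 regions 3 were called higher and 10 lower in Ogtflox+/Y, 19.1% in all. Of all 191693 regions tested 28.1% were called, 15.4% higher and 12.7% lower. The median log2 fold change of the receptor regions was -0.08, against -0.0069 for all regions. All 10 lower regions belonged to Chrna7, Chrna2 and Chrnb2, with 6, 3 and 1, and 8 of them lay inside the gene. Of the 68 regions 49 overlapped a receptor gene. Of these, 40 lay more than 1 kb from its listed starts, and 8 of the 40 were called lower and 1 higher. Among all regions inside a gene and more than 1 kb from a listed start 13.5% were called lower. The split into higher and lower depended on the scaling. With library totals in place of TMM 1 region was higher and 23 lower, with reads in regions 1 and 15, as the median of all regions moved to -0.27 and -0.12. These fits called 31.5% and 29.2% of all regions, and 13135 of 60324 and 22542 of 55989 such calls were higher. Of the 13 calls, 5 were lost in DESeq2, and all 13 with grouping by title, where no region of the series passed in edgeR (5 of the 68 and 23038 of all had an unadjusted p under 0.05). Without Ogtflox-/Y replicate 2 the receptor regions had 8 calls, and the share called among all regions was 17.6%.

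**Figure D2:**
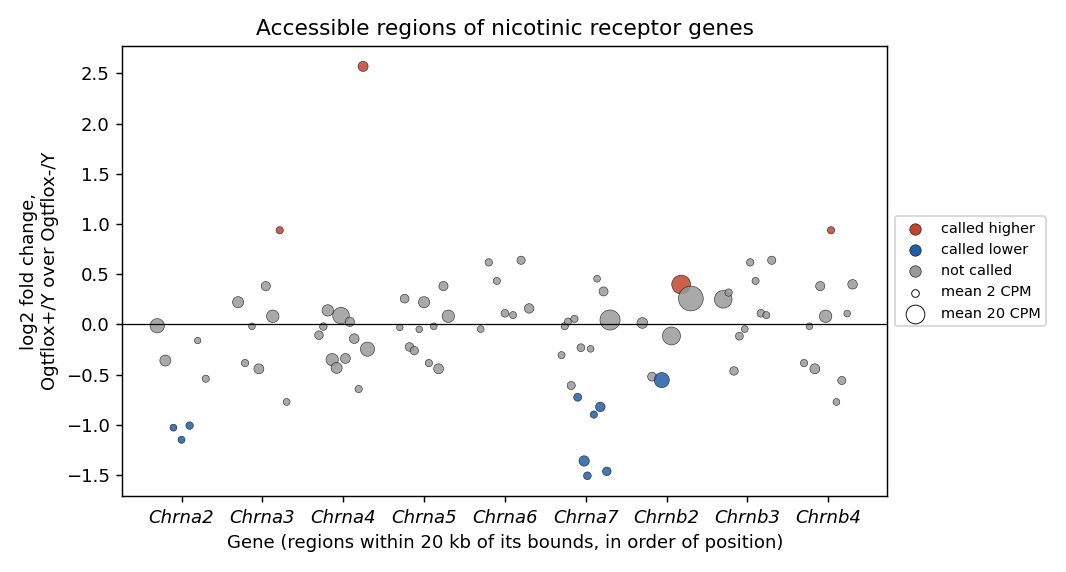
Log2 fold change of Ogtflox+/Y over Ogtflox-/Y for each region within 20 kb of a receptor gene, in order of position within a gene; red and blue mark called regions, grey the others, and point size rises with mean CPM. Regions shared by neighbouring genes appear under each gene. The blue points gather at Chrna7 and Chrna2, and the highest point is a region beside Chrna4.

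At Chrna7, the alpha7 subunit gene, several regions inside the gene were less accessible in Ogtflox+/Y, and the start region did not pass the test. The gene spans 113835 bp (chromosome 7, 63098692 to 63212526, minus strand), and all 16 of its regions overlap these bounds. Of these 6 fell in Ogtflox+/Y and none rose; the other 10 did not pass. The called regions lay between 5168 and 58312 bp from the start. Exons and introns were not told apart.

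The region nearest the start among them (63207158 to 63207558) had 4.86, 4.02 and 4.02 CPM in Ogtflox-/Y replicates 1 to 3 and 1.59, 1.74 and 1.33 CPM in Ogtflox+/Y. Each Ogtflox+/Y library was below each control library there, and the log2 ratio was -1.46 (SE 0.24, adjusted p = 0.0003 in edgeR). It kept its call in every alternative fit except grouping by title.

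A pair of neighbouring regions lay about 44 kb into the gene, 44384 and 43789 bp from its start. The first (63167942 to 63168342) was the most open region of the gene after the start in controls, with 9.56, 5.74 and 6.39 CPM, against 1.36, 2.45 and 4.38 CPM in Ogtflox+/Y (log2 ratio -1.36, SE 0.29, adjusted p = 0.0026 in edgeR). The second (63168537 to 63168937) had 3.95, 2.65 and 2.60 CPM against 0.528, 1.66 and 0.996 CPM (log2 ratio -1.51, SE 0.33, adjusted p = 0.0026 in edgeR). In both, Ogtflox+/Y replicate 1 was the lowest library and the genotypes did not overlap. With Ogtflox+/Y replicate 2 as the only library of its genotype the second lost its call (log2 ratio -0.86, adjusted p = 0.14).

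A wider region at 63189654 to 63190358 fell from 5.10 ± 0.705 to 2.84 ± 0.652 CPM (SD, n = 3; adjusted p = 0.010 in edgeR). The region starting at 63177350 had 2.14 ± 0.276 CPM in Ogtflox-/Y and 1.16 ± 0.415 CPM in Ogtflox+/Y, and the one starting at 63154014 had 2.94 ± 0.196 and 1.79 ± 0.487 CPM (SD, n = 3; adjusted p = 0.030 and 0.037 in edgeR). Both calls were lost in DESeq2 and in 5 of the 6 fits that left out 1 library, where adjusted p was 0.052 to 0.13 for the former and 0.064 to 0.13 for the latter. Leaving out Ogtflox+/Y replicate 2 kept the former, and leaving out Ogtflox+/Y replicate 1 the latter. The latter was also lost with lowess curves in place of TMM (adjusted p = 0.074 in edgeR). With Ogtflox+/Y replicate 2 as the only library of its genotype the log2 ratios were -0.46 for the former and -1.07 for the latter. With all libraries they were -0.90 and -0.72. Not every region moved down: one at 63195603 to 63196303 had 2.28, 3.59 and 3.17 CPM in controls and 4.00, 3.72 and 3.85 CPM in Ogtflox+/Y, and did not pass (log2 ratio 0.33, adjusted p = 0.27 in edgeR).

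**Figure D3:**
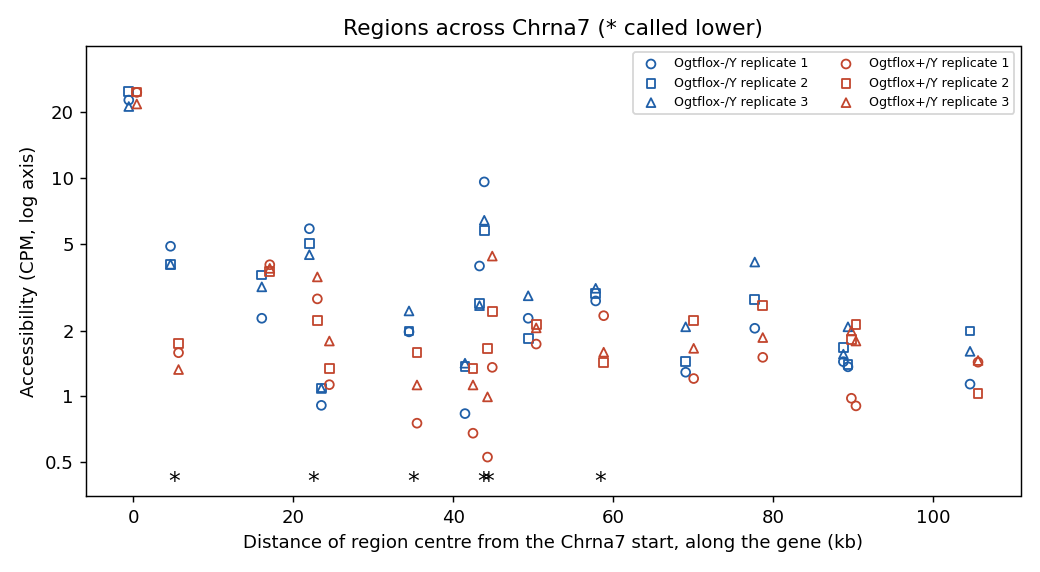
Accessibility in CPM, on a log axis, of the 16 Chrna7 regions against the distance of the region centre from the gene's start, for each of the 6 libraries; asterisks mark regions called lower. The genotypes overlap at the start, near 21 to 25 CPM, and separate at the 6 marked regions. They also do not overlap at the unmarked regions starting at 63188306 and 63195603, where Ogtflox+/Y is higher.

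Summed over its regions Chrna7 had 65.1, 64.3 and 64.2 CPM in Ogtflox-/Y and 47.5, 54.1 and 52.2 CPM in Ogtflox+/Y. The genotypes did not overlap, and the sum fell by 0.33 on the log2 scale (SE 0.08, adjusted p = 0.0021 in edgeR, adjusted over 18419 genes). Of all gene sums 43.5% were called, 35.2% higher and 8.26% lower, and of the 9 receptor genes none was called higher and 2 lower, Chrna7 and Chrna2. The call at Chrna7 was lost with Ogtflox+/Y replicate 2 as the only library of its genotype (log2 ratio -0.27, adjusted p = 0.077 in edgeR). Astrocyte marker regions were at 274 CPM in that library and at 377 and 359 CPM in Ogtflox+/Y replicates 1 and 3; the part of such cells in the Chrna7 result was not tested.

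A ratio of reads inside a gene, beyond 1 kb of its listed starts, to the reads of its most open start region does not depend on library scaling. This measure was chosen after the values were seen. For Chrna7 it was 1.88, 1.60 and 2.04 in Ogtflox-/Y and 0.935, 1.20 and 1.41 in Ogtflox+/Y. The genotypes did not overlap (exact two-sided permutation p = 0.1, the smallest that 3 against 3 libraries allow). For Chrnb2 it was 0.972 ± 0.0223 and 0.718 ± 0.0546, and for Chrna4 1.65 ± 0.0946 and 1.25 ± 0.0715 (SD, n = 3). It was lower in Ogtflox+/Y without overlap in 5 of the 6 genes with a listed start, Chrna5 being the exception, with an adjusted exact permutation p of 0.12 over the 6. The Chrnb4 ratio rests on few reads, as its start region had 12, 27 and 25 reads in Ogtflox-/Y and 13, 14 and 20 in Ogtflox+/Y. Among 8288 genes with such a ratio 37.4% were lower without overlap, and the median log2 difference was -0.21, against -0.65 for Chrna7, -0.44 for Chrnb2, -0.43 for Chrna3, -0.40 for Chrna4, -0.27 for Chrnb4 and -0.22 for Chrna5. The Chrna7 difference was -0.25 with grouping by title.

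**Figure D4:**
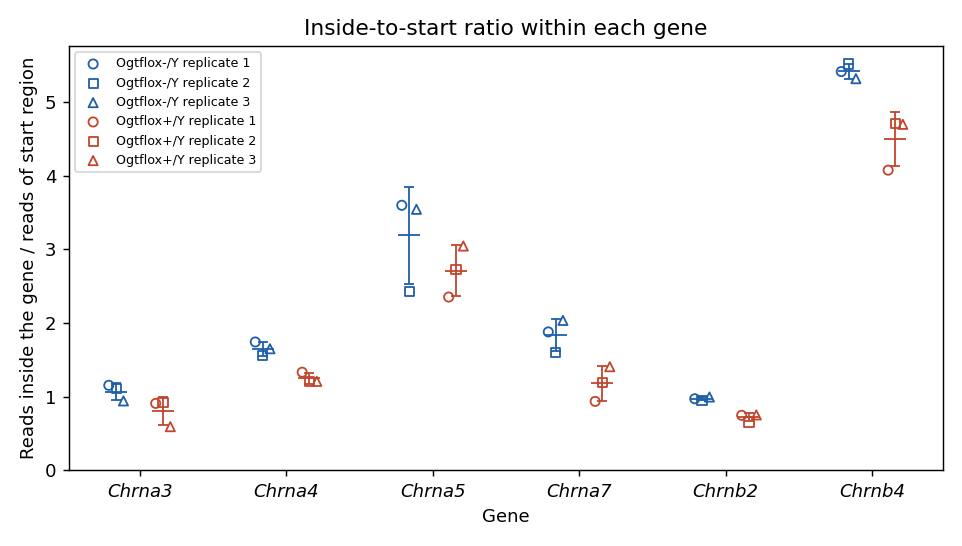
Ratio of reads inside each gene to reads of its most open start region, by gene; symbols are libraries, horizontal marks and bars are the mean and SD of 3 libraries. Ogtflox+/Y lies below Ogtflox-/Y without overlap in each gene but Chrna5.

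Chrnb2, the beta2 subunit gene (chromosome 3, 89753448 to 89764632), lost accessibility at 1 region inside the gene. This region (89759668 to 89760068), 4764 bp from the start, had 14.3, 15.4 and 14.3 CPM in Ogtflox-/Y and 9.21, 9.34 and 11.4 CPM in Ogtflox+/Y. The genotypes did not overlap, and it fell by 0.55 on the log2 scale (SE 0.13, adjusted p = 0.0051 in edgeR), a call lost in no alternative but grouping by title. On the far side of the start, 7946 bp beyond the gene, a region spanning 89772578 to 89772978 was called higher, from 17.5 ± 3.08 to 22.8 ± 0.539 CPM (SD, n = 3; log2 ratio 0.40, adjusted p = 0.022 in edgeR). It lies 631 bp from the listed start of Ube2q1, a ubiquitin-conjugating enzyme gene, and its call was lost in the 3 other scalings and without Ogtflox-/Y replicate 2 or 3 (adjusted p = 0.10 and 0.13). A fit with Ogtflox+/Y replicate 2 as the only library of its genotype gave a log2 ratio of 0.42 there. The most open region of the Chrnb2 window, 83 bp from that Ube2q1 start, had 32.9 ± 2.89 and 39.2 ± 1.17 CPM (SD, n = 3; adjusted p = 0.055 in edgeR). The Chrnb2 sum therefore held reads of both kinds, at 93.2 ± 4.95 and 97.6 ± 2.19 CPM (SD, n = 3; log2 ratio 0.07, adjusted p = 0.47 in edgeR). Summed over regions that overlap the gene itself, Chrnb2 fell by 0.31 on the log2 scale (adjusted p = 0.015 in edgeR).

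Chrna4, the alpha4 subunit gene (chromosome 2, 181022311 to 181043579), had the largest change among the 68 regions. A region 13641 bp beyond its bounds, on the side of its start (181057220 to 181057620) had 0.911, 1.44 and 1.56 CPM in Ogtflox-/Y. Ogtflox+/Y replicates 1 to 3 had 8.53, 6.89 and 8.63 CPM there, a 6.14-fold higher mean (log2 ratio 2.57, SE 0.23, adjusted p = 8.1e-07 in edgeR). All Ogtflox+/Y libraries were far above all controls, and only grouping by title ended the call. No protein-coding gene overlaps this region, and Chrna4 is the nearest. The other 11 regions of Chrna4 did not pass, with log2 fold changes from -0.64 to 0.14. Among them were 2 regions inside the gene with 8.66 and 6.81 CPM in controls and 6.78 and 5.05 CPM in Ogtflox+/Y (adjusted p = 0.12 and 0.078 in edgeR). The Chrna4 sum was 64.8, 70.1 and 72.7 CPM in Ogtflox-/Y and 70.4, 69.9 and 69.4 CPM in Ogtflox+/Y, with overlap of the genotypes.

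Chrna6 and Chrnb3, the subunit genes enriched in dopaminergic neurons, are neighbours on chromosome 8 (27403212 to 27413944 and 27368711 to 27399730) and share 6 regions. None of their 11 regions passed the test. Chrna6 had low levels throughout, and its most open region (27427443 to 27427843), 13499 bp outside the gene, had 3.26, 2.61 and 5.20 CPM in Ogtflox-/Y and 4.00, 4.99 and 3.45 CPM in Ogtflox+/Y. The region across the upper bound of Chrna6 (27413669 to 27414069) had 1.29, 1.60 and 3.03 CPM against 3.55, 3.17 and 2.72 CPM (log2 ratio 0.64, SE 0.28, adjusted p = 0.098 in edgeR). Ogtflox-/Y replicate 3 was the highest control at both and overlapped Ogtflox+/Y.

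The Chrna6 sum was 10.9, 10.3 and 17.7 CPM in Ogtflox-/Y and 16.2, 19.2 and 12.9 CPM in Ogtflox+/Y (log2 ratio 0.30, SE 0.17, adjusted p = 0.16 in edgeR). The Chrnb3 sum was 30.7, 27.6 and 38.8 CPM against 34.6, 43.9 and 33.7 CPM (log2 ratio 0.21, SE 0.12, adjusted p = 0.15 in edgeR). Without Ogtflox-/Y replicate 3 both passed, at log2 fold changes of 0.60 and 0.36 (adjusted p = 0.013 and 0.032 in edgeR). Chrnb3 also had a strongly open region 6117 bp outside its bounds (27362035 to 27362594), with 17.1, 14.8 and 16.3 CPM in Ogtflox-/Y and 16.5, 22.3 and 18.3 CPM in Ogtflox+/Y. That region did not pass (log2 ratio 0.25, adjusted p = 0.14 in edgeR), and with Ogtflox+/Y replicate 2 as the only library of its genotype it did (0.46, adjusted p = 0.039 in edgeR), as it did without Ogtflox+/Y replicate 1 (0.36, adjusted p = 0.049).

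Chrna5, Chrna3 and Chrnb4 form a cluster on chromosome 9 (bounds from 54980827 to 55048953), and of their 16 regions 1 passed. It lies inside Chrnb4 (55031464 to 55031864), 4902 bp beyond the bounds of Chrna3, and had 0.835, 1.09 and 1.47 CPM in Ogtflox-/Y and 1.36, 1.98 and 3.25 CPM in Ogtflox+/Y. The genotypes overlapped there, and Ogtflox+/Y replicate 3 was the highest library (log2 ratio 0.94, SE 0.33, adjusted p = 0.038 in edgeR). The call was lost in DESeq2, with library totals, with reads in regions and without Ogtflox-/Y replicate 1 or 2 or Ogtflox+/Y replicate 3 (adjusted p = 0.12, 0.12 and 0.29). A fit with Ogtflox+/Y replicate 2 as the only library of its genotype gave a log2 ratio of 0.75 there. The region with the most reads inside the bounds of Chrna5 (55003596 to 55004387), which is 792 bp wide and per kb, at means of 7.06 and 8.27 CPM, lay within the range of the Chrna5 start regions, had values of 5.24, 5.35 and 6.20 CPM against 6.49, 7.05 and 6.11 CPM, and did not pass. The sums of the 3 genes share reads. Chrna5 had 32.2, 37.7 and 36.4 CPM in Ogtflox-/Y and 32.3, 39.9 and 35.2 CPM in Ogtflox+/Y. Chrna3 had 25.5, 27.7 and 28.6 CPM against 24.1, 30.8 and 29.9 CPM, and Chrnb4 had 27.2, 29.9 and 30.4 CPM against 25.1, 31.2 and 32.1 CPM. Their log2 fold changes of 0.01, 0.05 and 0.01 did not pass. Ogtflox+/Y replicate 1 was the lowest library at Chrna3 and Chrnb4, and the genotypes overlapped at all 3 genes.

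Chrna2, the alpha2 subunit gene (chromosome 14, 66133236 to 66152948), was called lower as a sum, from 29.7, 25.3 and 24.9 CPM to 22.3, 21.1 and 19.7 CPM. The genotypes did not overlap (log2 ratio -0.33, SE 0.11, adjusted p = 0.017 in edgeR). Among the fits that left out 1 library, the call of Chrna2 was lost without Ogtflox-/Y replicate 1 (adjusted p = 0.093 in edgeR) or Ogtflox+/Y replicate 3 (0.080). Of its 7 regions 3 fell. One lies inside the gene (66150648 to 66151048), with 1.59, 2.03 and 1.70 CPM against 0.755, 0.871 and 0.996 CPM (log2 ratio -1.03, adjusted p = 0.016 in edgeR); its call was lost in DESeq2 and without Ogtflox+/Y replicate 1 or Ogtflox-/Y replicate 2 (adjusted p = 0.057 and 0.081). The others overlap the bounds of Ptk2b, a neighbouring tyrosine kinase gene; at 66154869 to 66155269 values were 2.43, 2.22 and 2.60 CPM against 1.43, 1.03 and 1.13 CPM (log2 ratio -1.01, adjusted p = 0.0092 in edgeR). Its call was lost with Ogtflox+/Y replicate 2 as the only library of its genotype (adjusted p = 0.054). The third (66153977 to 66154377) was highest in Ogtflox-/Y replicate 1, with 3.34 CPM against 1.44 and 1.28 CPM in the other controls. Its call was lost in DESeq2, without that library (log2 ratio -0.66, adjusted p = 0.19) and without Ogtflox+/Y replicate 1 or 3 (adjusted p = 0.083 and 0.12). A fit with Ogtflox+/Y replicate 2 as the only library of its genotype gave log2 ratios of -0.35 for the Chrna2 sum, -1.06 at 66150648 and -0.78 at 66153977. The most open region of the window lies in Ephx2, an epoxide hydrolase gene, with 10.9 ± 0.732 and 10.8 ± 1.03 CPM (SD, n = 3).

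**Figure D5:**
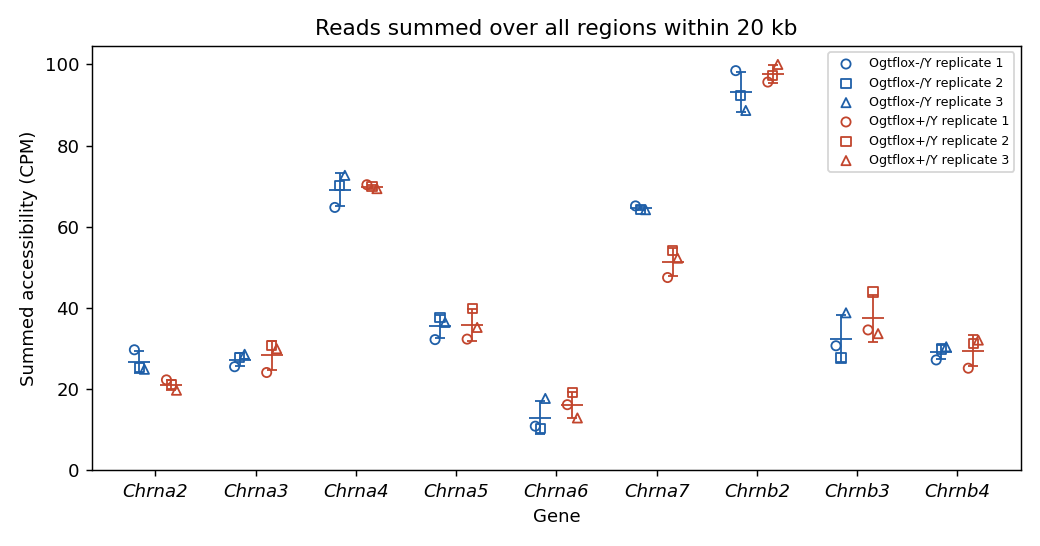
Reads summed over all regions within 20 kb of each receptor gene, in CPM; symbols are libraries, horizontal marks and bars are the mean and SD of 3 libraries. Chrna7 and Chrna2 are lower in Ogtflox+/Y without overlap, and Ogtflox-/Y replicate 3 is the highest control at Chrna6 and Chrnb3.

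Sums of Chrna6 over the 6 libraries followed most closely those of Meikin, Adamts9 and Lrmda among 17469 genes on other chromosomes (Pearson r 0.98 for each). For Chrna4 the closest were Kcnmb2, Csta2 and Fgf10 (r 0.97, 0.96 and 0.96, of 16970 genes). These correlations rest on 6 libraries and are given as a description.

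Other genes of acetylcholine signalling were described by the same fit. Of 586 regions tested near 27 such genes 54 were higher and 52 lower. That is 18.1%, against 28.1% of all regions (15.4% higher and 12.7% lower). The median log2 fold change of the 586 was -0.04. With library totals the split was 23 and 129, and with reads in regions 42 and 82. Among all regions 13135 of 60324 calls were higher with library totals, and 22542 of 55989 with reads in regions. Near the 7 subunit genes of muscle and hair cell receptors 12 of 57 regions rose and 5 fell; the sums of Chrnd, Chrng and Chrna1 rose, at log2 fold changes of 0.33, 0.37 and 0.23 (adjusted p = 0.0014, 5.0e-04 and 0.029 in edgeR). All 7 regions of Chrng also count for Chrnd, so these sums share reads, and 35.2% of all gene sums were called higher. With library totals none of the 3 sums passed and that of Chrna1 turned to -0.04; Chrna1 also did not pass with reads in regions or with the lowess scaling (adjusted p = 0.19 and 0.11). The risen region of smallest adjusted p, within 20 kb of Chrnd, lies in Eif4e2, a translation factor gene, and had 36.9, 34.6 and 35.6 CPM in Ogtflox-/Y and 50.8, 50.8 and 53.4 CPM in Ogtflox+/Y (adjusted p = 4.5e-04 in edgeR). Another near Chrna1, which encodes a muscle subunit, rose from 7.68 ± 0.453 to 12.9 ± 0.853 CPM (SD, n = 3). Of the fallen regions, one in Chrna10, a hair cell subunit gene, had 2.94 ± 0.394 and 1.38 ± 0.180 CPM, and one in Chrnd had 2.92 ± 0.378 and 1.26 ± 0.690 CPM (SD, n = 3).

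Among genes of receptor assembly and surface partners 29 of 382 regions rose and 32 fell, while 15.4% of all regions were called higher and 12.7% lower. A region in Ric3, a chaperone gene of nicotinic receptors, rose from 1.82, 1.64 and 2.03 CPM to 5.43, 6.02 and 6.24 CPM (log2 ratio 1.69, SE 0.21, adjusted p = 3.0e-05 in edgeR). A region in Vsnl1, a calcium sensor gene, fell from 5.92, 5.23 and 4.59 CPM to 1.51, 1.43 and 2.26 CPM (log2 ratio -1.57, adjusted p = 1.7e-04 in edgeR). A region near Ly6h, whose product modulates nicotinic receptors at the surface, fell from 4.24 ± 1.25 to 1.71 ± 0.457 CPM (SD, n = 3). None of the 11 gene sums of this list was called by edgeR (2 at an unadjusted p under 0.05, 1 called by DESeq2).

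Near the 5 muscarinic receptor genes, whose products act through G proteins, 9 of 123 tested regions rose and 14 fell. For this list and the next, the shares of all regions were 15.4% called higher and 12.7% lower. Chrm5, the muscarinic receptor gene known from dopaminergic neurons, fell as a sum from 89.2 ± 12.8 to 74.9 ± 3.56 CPM (SD, n = 3; log2 ratio -0.25, adjusted p = 0.026 in edgeR). Its bounds overlap those of Aven, and 1 region in its window rose and 4 fell. The risen one had 24.6, 24.7 and 24.3 CPM in Ogtflox-/Y and 39.2, 34.6 and 31.4 CPM in Ogtflox+/Y. The fallen one of smallest adjusted p had 16.5, 16.2 and 14.1 CPM against 9.96, 8.95 and 8.23 CPM (log2 ratio -0.79), and the next by adjusted p fell by more, from 3.28 ± 0.719 to 1.46 ± 0.349 CPM (SD, n = 3; log2 ratio -1.14). A region in Chrm3, another muscarinic receptor gene, rose from 1.30 ± 0.146 to 3.19 ± 0.586 CPM (SD, n = 3). Near genes of acetylcholine synthesis, transport and breakdown 4 of 24 regions rose and 1 fell, in Chat, the synthesis enzyme gene (2.75 ± 1.06 to 1.43 ± 0.665 CPM; SD, n = 3). The sum of Ache, the gene of the enzyme that breaks acetylcholine down, rose from 179 ± 10.8 to 212 ± 14.3 CPM (SD, n = 3; log2 ratio 0.24, adjusted p = 0.015 in edgeR). The sum did not pass with library totals, with reads in regions or with the lowess scaling, and with library totals it turned to -0.01. The risen Ache regions of smallest adjusted p had 9.81 ± 2.09 and 14.6 ± 2.10 CPM, and 40.5 ± 3.62 and 51.6 ± 5.33 CPM (SD, n = 3). No region lay within 20 kb of Slc5a7, the choline transporter gene.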

How the data were processed

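Nuclei of 6 libraries were profiled by ATAC-seq. The read counts per region were used as deposited, over 193148 regions common to all libraries, of which 94.6% span 401 bp; per the submitters' processing notes the tools were BWA, MACS2, Picard, SAMtools 1.9, Trimmomatic and FastQC, with build mm10, and no roles are given. How the common regions were made, and whether reads were shifted for the transposase, is not given in the sources used here, and the labels' protocol names a DNA library kit without a transposition step. The RPKM values, per the file headers, were scaled by the authors to region length and library size, and served only to recover library totals (34384319 to 66853563 reads). The deposited score per region is unexplained in the file headers and was not tested. 

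Regions were tested with edgeR 4.0.16 (filterByExpr, TMM, quasi-likelihood test; R 4.3.3), genotype as the only term, 3 against 3 libraries, with Benjamini-Hochberg adjustment over 191693 regions; called means an adjusted p under 0.05, and SE is the log2 fold change over the square root of F. Reads summed per gene were tested over 18419 protein-coding genes. The script was checked on simulated data with far fewer changed regions than were called here. That check does not bear on the choice of scaling. Genotype labels set the groups. Alternatives were DESeq2 1.42.0, other scalings and windows, no filter, libraries left out, Ogtflox+/Y replicate 2 alone, and grouping by title. 

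The receptor genes and lists were chosen with earlier results of these data known. Named regions are, for each receptor gene, the most open, the start region and the called one of smallest adjusted p in each direction, and for each acetylcholine list the 2 called regions of smallest adjusted p in each direction; other regions were named after their values were seen. One region that this rule names is not reported here. Correlated genes are the 3 closest on other chromosomes. Sequences come from RefSeq, with no exon annotation used.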

Additional observations from a re-analysis of the deposited data

How the results depend on the processing

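The 13 called receptor regions became 8 in DESeq2 (2 higher, 6 lower; 18.5% of all regions were called in that fit), 6 with Ogtflox+/Y replicate 2 as the only library of its genotype (11.5% of all), 24 with library totals (31.5% of all) and 0 with grouping by title (5 at an unadjusted p under 0.05 in edgeR). With replicate 2 alone 5 of the 13 were kept, and the Chrnb3 region at 27362035 was called in addition. Windows of 50 kb gave 23 calls among 98 regions, and leaving out 1 library gave 8 to 16, with 17.6% to 28.5% of all regions called. All 13 kept their sign in each of these fits of the regions. The 2 called receptor gene sums became 0 by title (1 unadjusted), where no gene sum of the series passed. With 1 library left out they numbered 1 to 4. In those fits 29.4% to 50.1% of all gene sums were called, against 43.5% with all libraries. With replicate 2 alone the log2 fold changes were -0.27 for Chrna7, -0.35 for Chrna2 and 0.42 for Chrnb3. The Chrnb2 sum turned from 0.07 to -0.31 (log2) with regions in the gene only and to -0.27 with windows of 5 kb. The 106 calls near other acetylcholine genes became 58 in DESeq2, 36 with replicate 2 alone, 0 by title (46 unadjusted) and 57 to 100 with 1 library left out, and the 114 near cell type markers became 55, 0 by title (40 unadjusted) and 77 to 124 for the last of these; DESeq2 gave 78. For these changes the cause was not tested. The fits that leave libraries out also hold fewer libraries. With all libraries 346 marker regions were tested, and the 114 calls were 79 higher and 35 lower. Of all regions 15.4% were called higher and 12.7% lower. Near GABAergic markers 22 of 61 regions were higher and 2 lower, and near astrocyte markers 21 of 49 and 4. Near dopaminergic markers 7 of 71 were higher and 2 lower, and near glutamatergic markers 2 of 32 and 9. Of 456 recomputed single values, 57 changed sign without passing in either fit. Depth limits the 26 receptor regions under 2 CPM, and the lone library of replicate 2 alone is assumed to vary like the others. No paired analysis was possible because the title numbers 1, 3 and 5 of one genotype are not shared with 2, 4 and 6 of the other.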
